A study of Mus musculus with 4 samples.

Results

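The genes of carboxypeptidase E (Cpe) and of 9 other enzymes that cut and finish secreted precursor proteins were followed in mouse embryonic stem cells after knockdown of the long noncoding RNA Cyrano. They are 10 of the 23366 gene symbols in the count files and were taken by name: the carboxypeptidase genes Cpe, Cpd, Cpm and Cpz, the amidating enzyme gene Pam, and the convertase genes Furin, Pcsk1, Pcsk5, Pcsk6 and Pcsk7. The set was built around Cpe because its adjusted p was under 0.05 in the comparison of knockdown with control, so its change, and that of the others in the same comparison, is given as a description. Polyadenylated RNA was sequenced from the R1 line (strain 129X1 x 129S1), kept on gelatin in medium with LIF, the cytokine that holds mouse stem cells undifferentiated. The 2 knockdown libraries came from cells transfected with a hairpin against Cyrano, and the 2 control libraries from cells transfected with a non-targeting hairpin. Both hairpins sat in the same mCherry and puromycin vector, pSicoR-Ef1a-mCh-Puro. Enrichment for it was by drug or by sorting, and the labels tie neither to a library. The model is therefore 1 cell line. The libraries of a group are called biological replicates, and nothing says how their cultures were separated.

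Many secreted proteins are made as longer precursors. Proprotein convertases cut them after pairs or clusters of basic residues, metallocarboxypeptidases then remove the lysines and arginines left at the new carboxyl end, and peptidylglycine monooxygenase amidates peptides that end in glycine. In neuroendocrine cells these steps run in dense secretory granules and yield peptide hormones, whereas most other cells use furin and its relatives in the trans-Golgi network and at the surface to mature growth factors, receptors and adhesion proteins. In the early mouse embryo, convertases are best known for cutting Nodal and its relatives.

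Cyrano is known to bind the microRNA miR-7 through a conserved stretch, and the study is about microRNA activity, so the miR-7 sequences are shown beside the matches found in the 10 genes. The mature miR-7a arises from Mir7-1 (GRCm38.p6, chr13:58392841-58392863, minus strand) and Mir7-2, and miR-7b from Mir7b. Capitals mark the seed, bases 2 to 8, which is the same in both, and the sequences are RefSeq's.
miR-7a-5p: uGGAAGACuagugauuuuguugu
miR-7b-5p: uGGAAGACuugugauuuuguuguu
The GENCODE M21 transcript of Cyrano (chromosome 2, GRCm38) holds 6 seed matches. The match at base 2952 of 8300 is shown because the most bases pair there, 13 of the 23 of miR-7a counted without gaps. Capitals mark the seed match here and in the sites below.
Cyrano: acaacaaaatcaccaatGTCTTCCAt
The longest annotated 3′ untranslated region of each member was searched (GENCODE M21) on the transcript's strand for GTCTTCC or TCTTCCA, which overlap in a full match. Of the 10 genes, 4 held at least 1 match (Cpm, Pam, Pcsk1 and Pcsk7), and across all genes with such a region the share was 23.9%. Cpm held 2, at bases 839 and 1003 after the stop codon, Pam held 1 at base 243, Pcsk1 at base 201 and Pcsk7 at base 669.
Cpm, first site: ttttcgccaagtccGTCTTCCAc
Cpm, second site: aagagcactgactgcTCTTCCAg
Pam: gagaagctgccctccTCTTCCAt
Pcsk1: gtgtttaagagtatGTCTTCCct
Pcsk7: gtctctgaccacctGTCTTCCtc
Cpe, Cpd, Cpz, Furin, Pcsk5 and Pcsk6 held neither string in the region searched, which spanned 581 bases in Cpe and 3760 bases in Cpd. A match of letters is not a measured site.

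Gene counts came to 22321102 and 20761783 in knockdown libraries 1 and 2, against 16854403 and 19138196 in control libraries 1 and 2. Cyrano, listed as 1700020I14Rik, had 89 and 68 reads in the knockdown libraries, against 407 and 286 in the controls (log2 fold change -2.48 ± 0.30, SE; edgeR adjusted p = 0.0070). Its adjusted p was 0.12 without control library 1 (log2 fold change -2.08) and 0.057 without control library 2 (-2.79). The 8 stem cell genes of the marker list were at 129 to 1219 CPM in all 4 libraries (counts per 1000000 reads in genes, with library sizes scaled by edgeR's TMM factors). Of 8 fibroblast and feeder markers, Col3a1, Dcn, Lum and Postn had no read in any library, whereas Vim was at 535 to 615 CPM and Thy1 at 20.4 to 48.0 CPM. That list summed to 584 and 568 CPM after knockdown, against 602 and 639 CPM in the controls. The 45S ribosomal RNA precursor Rn45s took 12.3% and 11.03% of the counts in the knockdown libraries and 17.5% and 15.9% in the controls. Fold changes followed transcript length, with a median log2 fold change of 0.12 in the fifth of tested genes with the shortest transcripts and -0.14 in the fifth with the longest. The part of either in the values of the 10 genes was not tested beyond the length and GC offset given below. In bulk RNA, fewer cells that express a gene and less RNA of that gene per cell cannot be told apart.

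Cpe encodes the carboxypeptidase of secretory granules, which trims the basic residues from hormone precursors after convertase cleavage. It had 783 and 799 reads in the knockdown libraries, against 269 and 293 reads in the controls. As levels these were 35.1 and 37.1 CPM after knockdown, and 16.4 and 15.5 CPM in the controls. Both knockdown libraries lay above both controls, and the libraries of a group lay close to each other. The mean was 36.1 ± 1.44 CPM in knockdown libraries and 15.9 ± 0.599 CPM in control libraries (SD, n = 2 each), a fold of 2.26 and a log2 fold change of 1.18 ± 0.19 (SE). Leaving out 1 library at a time gave 1.14 to 1.22, and its adjusted p was then 0.05 or above without control library 1 (1.22) and without control library 2 (1.14). Correcting for transcript length and GC content by an offset gave 1.13.

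Markers of primitive endoderm, a cell type that stem cell cultures can give rise to, leaned the same way as Cpe. The log2 fold change was above 0 in all 10 of the list (median 0.59, against -0.002 over all genes tested). In 8 of them the knockdown libraries lay above the controls without overlap, as in 22.3% of all tested genes. By edgeR none of the 10 had an adjusted p under 0.05. An unadjusted p under 0.05 was reached by 5, all higher, as by 6.18% of all tested genes, while DESeq2 called 2 (Gata4 and Pdgfra) and limma-voom none. The summed level of the 10 markers was 1496 and 1203 CPM in knockdown libraries, against 1158 and 962 CPM in control libraries. The groups were thus apart by a narrow margin. Col4a1, at 400 to 640 CPM, and Lama1, at 287 to 466 CPM, made up most of that sum. Of 12 neural and neuroendocrine markers, 8 could be tested and 5 of them had a log2 fold change above 0. By edgeR none was called, DESeq2 called Sox11, and limma-voom called none. At an unadjusted p under 0.05 there were 2 by edgeR, Sox11 and Nes, both higher. The summed level of the 12 markers was 568 and 475 CPM after knockdown and 437 and 501 CPM in the controls, which overlapped. Stmn2, at 251 to 371 CPM, and Tubb3, at 90.3 to 162 CPM, made up most of it, and Dcx had no read in any library. Of the 8 stem cell genes, 4 had a log2 fold change above 0 and 4 below. By edgeR none was called and 3 had an unadjusted p under 0.05, Nanog and Esrrb lower and Dppa5a higher. DESeq2 called Nanog and limma-voom none. Nanog, a gene of the pluripotency network, had 129 and 133 CPM in knockdown libraries, against 216 and 228 CPM in controls (log2 fold change -0.76 ± 0.14, SE; edgeR adjusted p = 0.070), and its groups did not overlap. Esrrb had a log2 fold change of -0.35 ± 0.15. The summed level of the list was 4138 and 4125 CPM after knockdown and 4254 and 4501 CPM in the controls. The marker lists were chosen with earlier results of these data known, so their counts are given as a description. The part of any of these marker lists in the level of Cpe was not tested.

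**Figure D1:**
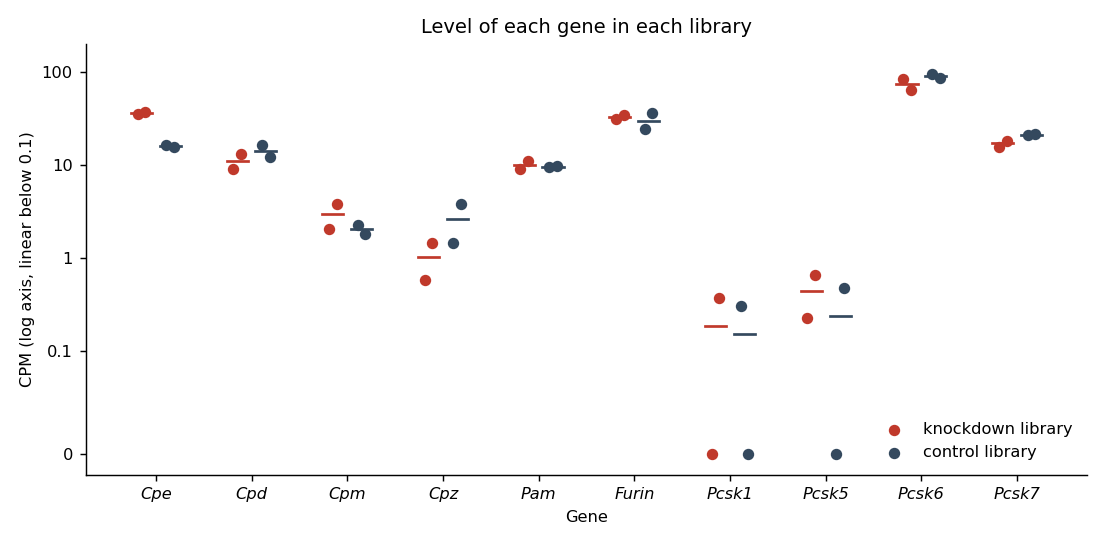
Level of each of the 10 genes in each library, in CPM on a log axis that is linear below 0.1, with knockdown libraries left of control libraries, points for libraries and bars for group means. Cpe lies at 35.1 and 37.1 CPM after knockdown and at 16.4 and 15.5 CPM in the controls. Pcsk6 has the highest CPM of the convertases shown in all 4 libraries, and Pcsk1 and Pcsk5 lie below 1 CPM.

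The other carboxypeptidase genes of the set, Cpd, Cpm and Cpz, were at lower levels than Cpe, in CPM and per kb of transcript. In control library 1, however, Cpd was nearly level with Cpe in CPM (267 against 269 reads). Cpd encodes a membrane enzyme of the trans-Golgi network that trims products of furin-type cleavage, and it had 8.95 and 13.05 CPM in knockdown libraries, against 16.2 and 12.3 CPM in controls. The groups overlapped, and the log2 fold change was -0.37 ± 0.27 (SE), with -0.13 without knockdown library 1 and -0.67 without knockdown library 2. It was -0.25 with the length and GC offset. Cpm, whose product is held at the cell surface by a lipid anchor, had 2.06 and 3.81 CPM after knockdown and 2.25 and 1.80 CPM in the controls, again with overlap (0.53 ± 0.46). Cpm ranged from 0.03 to 0.90 with 1 library left out at a time, the lowest value being that without knockdown library 2. Cpz encodes a secreted carboxypeptidase with a cysteine-rich domain like that of Frizzled receptors. It had 13 and 31 reads in the knockdown libraries, against 24 and 71 reads in the controls, which is 0.582 and 1.44 CPM against 1.46 and 3.76 CPM. The knockdown libraries lay below the controls by a narrow margin, and the order of knockdown library 2 and control library 1 turned round when library size alone set the scale (1.49 against 1.42 CPM). The log2 fold change of Cpz was -1.37 ± 0.62, and -0.53 without control library 2.

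Divided by the length of the longest annotated transcript, levels can be set beside each other between genes. On this scale Cpe made up 90.3% and 85.3% of the summed level of the 4 carboxypeptidase genes in the knockdown libraries. In the controls its share was 71.2% and 67.3%. Relatives outside the set, such as Cpxm1 and Cpn1, are not in the sum and would lower these shares. In the controls Cpxm1 had 39.4 and 31.2 CPM, against 16.4 and 15.5 CPM for Cpe. After knockdown Cpxm1 had 40.3 and 25.5 CPM, against 35.1 and 37.1 CPM for Cpe. The longest transcripts of Cpxm1 and Cpe were of near length, at 2366 and 2117 bases. The sum itself was 18.3 and 20.5 CPM per kb of transcript after knockdown, against 10.9 and 10.9 CPM per kb in the controls. Without Cpe, the sum of Cpd, Cpm and Cpz was 1.78 and 3.02 CPM per kb after knockdown and 3.13 and 3.57 CPM per kb in the controls. Thus, among the 4 carboxypeptidase genes of the set alone, Cpe was the main transcript in every library. The sum over the other 3 genes was lower in both knockdown libraries, by a narrow margin. With library size alone as the scale, that sum was 1.78 and 3.13 CPM per kb after knockdown and 3.05 and 3.52 CPM per kb in the controls, so the groups overlapped.

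**Figure D2:**
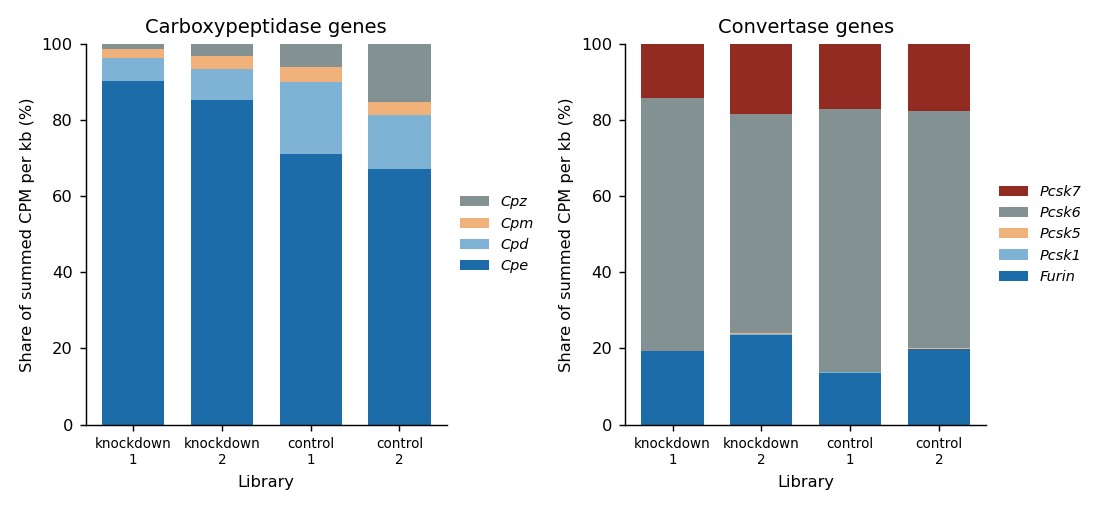
Share of each gene, in percent, in the summed CPM per kb of the 4 carboxypeptidase genes (left) and of the 5 convertase genes (right), with 1 bar for each library and knockdown libraries to the left. Cpe fills 90.3% and 85.3% of the carboxypeptidase bars after knockdown and 71.2% and 67.3% in the controls, and Pcsk6 fills between 57.4% and 69.2% of each convertase bar.

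Pam encodes the copper-dependent enzyme that amidates peptides, a step that follows the trimming by carboxypeptidase E. It had 9.04 and 10.9 CPM in the knockdown libraries, against 9.49 and 9.74 CPM in the controls. The knockdown values lay on either side of the controls. The log2 fold change was 0.05 ± 0.26 (SE), and it was -0.08 without knockdown library 2. The GENCODE annotation places an exon of B230216N24Rik over Pam on the same strand, and that gene had at most 1 read in a library.

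Among the convertases, Pcsk6, which encodes a secreted enzyme that binds heparan sulfate and can cut Nodal, had the highest level in CPM and per kb of transcript. It had 83.05 and 64.6 CPM in the knockdown libraries, against 95.5 and 86.4 CPM in the controls. Both knockdown libraries lay below both controls, and the log2 fold change was -0.30 ± 0.16 (SE). It was -0.19 with the length and GC offset, and -0.13 to -0.50 with 1 library left out at a time. Furin encodes the convertase of the trans-Golgi network that matures a wide range of growth factors and receptors. It had 31.5 and 34.4 CPM after knockdown and 24.3 and 35.8 CPM in the controls, so that the knockdown values lay between the controls. Its log2 fold change was 0.13 ± 0.21, and 0.31 with the length and GC offset. It was -0.12 without control library 1 and 0.44 without control library 2. The annotation also places exons of Gm45213 over Pcsk6 and of Gm44851 over Furin, for which no counts were used here.

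Pcsk7, the gene of the most divergent of the basic-site convertases, which also cycles between the trans-Golgi network and the surface, had 15.7 and 18.3 CPM in knockdown libraries, against 20.9 and 21.5 CPM in controls. The groups did not overlap, and the log2 fold change was -0.32 ± 0.21 (SE), with -0.43 to -0.22 over left-out libraries. It was -0.23 with the length and GC offset. Exons of Rnf214 and Tagln overlap Pcsk7 on the other strand. It is not stated whether reads were counted by strand. Rnf214 had 28.1 and 28.3 CPM after knockdown and 32.7 and 28.9 CPM in the controls, and Tagln had 1.48 and 1.21 CPM against 3.65 and 2.17 CPM. Their part in the reads of Pcsk7 was not tested.

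The remaining convertases of the set were at the limit of detection. Pcsk1, the granule convertase of neuroendocrine cells, had 0 and 8 reads in knockdown libraries, against 5 and 0 reads in controls, where a count of 0 allows a level of up to 0.134 CPM in knockdown library 1 and 0.159 CPM in control library 2 (3 counts, counting error only). Pcsk5, whose product cuts growth factors of the TGF-beta family among others, had 5 and 14 reads after knockdown and 0 and 9 reads in the controls. Neither passed the filter on low counts, so no fold change is given, and a difference was not detectable at this depth. Cpe was thus present in libraries in which Pcsk1, a granule partner, was scarcely read. Pcsk2, a convertase gene outside the set, had 0.224 and 0.604 CPM after knockdown and 0.365 and 0.476 CPM in the controls.

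Of the 10 genes, 8 passed the filter on low counts. Cpe alone had an adjusted p under 0.05 by edgeR, where 0.0833% of the 13199 tested genes had one. Cpe and Cpz had an unadjusted p under 0.05, where the share of all genes was 11.6%. DESeq2 called Cpe alone (1.36% of all genes) and limma-voom called none of the 10 (0.0227%). The groups did not overlap for Cpe, with knockdown above (22.3% of all tested genes), nor for Cpz, Pcsk6 and Pcsk7, with knockdown below (21.3%), and the share over both directions was 43.5%. Since the set was chosen on this comparison, nothing is read from these counts.

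**Figure D3:**
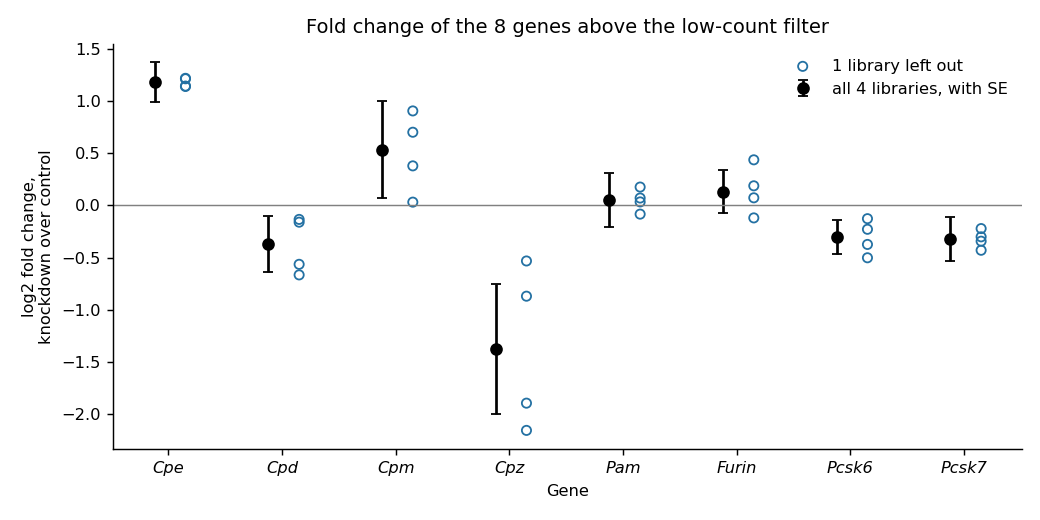
Log2 fold change, knockdown over control, of the 8 genes above the low-count filter, as filled points with SE from all 4 libraries and open points with 1 library left out. Cpe is at 1.18 with open points between 1.14 and 1.22, whereas the open points of Cpz run from -2.15 to -0.53 and those of Pam and Furin lie on both sides of 0.

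Order of levels was described separately in each group, on the scale of CPM per kb. In the knockdown libraries the order was Cpe, Pcsk6, Furin, Pcsk7, Pam, Cpd, Cpm, Cpz, Pcsk5 and Pcsk1, with means from 17.0 ± 0.682 CPM per kb for Cpe and 16.8 ± 2.96 for Pcsk6 down to 0.0368 for Pcsk1 (SD, n = 2). There the values of Cpe and Pcsk6 overlapped, as did those of Cpm and Cpz and of Pcsk5 and Pcsk1. In the controls the order was Pcsk6, Cpe, Pcsk7, Furin, Pam, Cpd, Cpz, Cpm, Pcsk5 and Pcsk1, with means from 20.7 ± 1.46 for Pcsk6 and 7.53 ± 0.283 for Cpe down to 0.0302 for Pcsk1. There Pcsk7 and Furin, Cpd and Cpz, and Pcsk5 and Pcsk1 overlapped. With all annotated exons as the length, Pcsk6 came before Cpe in both groups (14.2 and 13.8 CPM per kb after knockdown, 17.5 and 6.11 in the controls), Pam fell behind Cpd in both and behind Cpz in the controls, and Pcsk1 came before Pcsk5.

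The summed level of the 5 convertase genes was 28.4 and 25.5 CPM per kb in knockdown libraries, against 31.4 and 31.5 CPM per kb in controls. Pcsk6 made up 66.3% and 57.4% of it after knockdown and 69.2% and 62.4% in the controls. Furin made up 19.3% and 23.5% after knockdown, against 13.5% and 19.8% in the controls, and Pcsk7 14.2% and 18.4% against 17.1% and 17.6%. The shares of each of these genes overlapped between the groups, whereas the sum was lower in both knockdown libraries.

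The genes with a profile most like that of Cpe were sought over the 4 libraries among 12102 genes with a mean of at least 1 CPM. The measure was the root mean square difference between log2 CPM values (prior count 2) centred on each gene's mean. The 5 closest were Emb (0.066), 1700013H16Rik (0.070), Lcorl (0.072), Dusp4 (0.074) and Rhox13 (0.083). Emb encodes the membrane glycoprotein embigin and Dusp4 a phosphatase that inactivates MAP kinases. Emb had 82.7 and 89.3 CPM after knockdown and 43.05 and 40.2 CPM in the controls, and Dusp4 had 23.6 and 27.95 CPM against 11.9 and 10.3 CPM. A profile over 4 libraries is mostly the difference between the groups, so likeness to Cpe selects genes with a similar fold change.

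**Figure D4:**
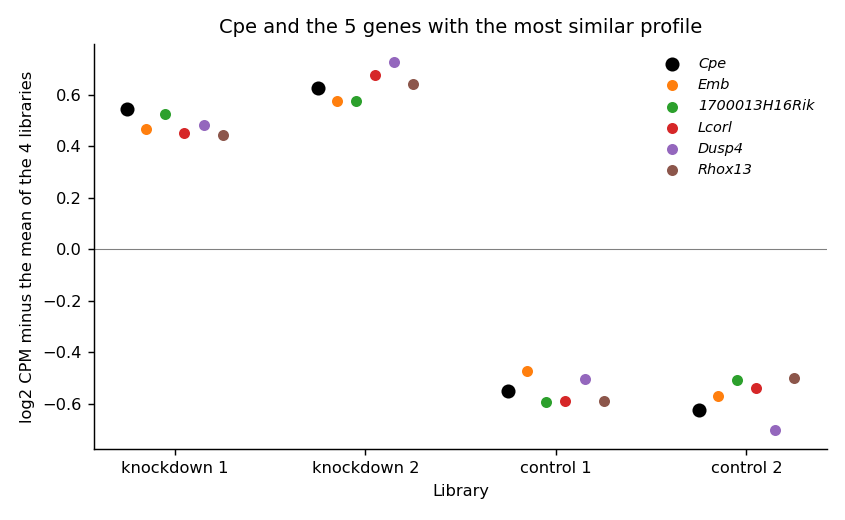
Log2 CPM minus the mean over the 4 libraries, for Cpe (large black points) and the 5 genes with the smallest root mean square difference from it, with knockdown libraries to the left. All 6 genes lie between 0.45 and 0.73 in the knockdown libraries and between -0.70 and -0.47 in the controls.

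Around the 10 enzymes, 129 further genes of precursor processing were followed in 9 lists of relatives, regulators, granule proteins, cofactor supply, sorting, precursors and substrates. Of these, 82 passed the low-count filter, and their median log2 fold change was -0.007, beside -0.002 over all genes tested. At an edgeR adjusted p under 0.05, 1 rose and none fell, where 0.0379% of all genes rose and 0.0455% fell. At an unadjusted p under 0.05 there were 2 higher and 7 lower, where the shares of all genes were 6.18% and 5.43%. DESeq2 called 1 higher and 1 lower, and limma-voom 1 higher. Since the lists were chosen with earlier results of these data known, nothing is read from these counts.

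The gene that rose was Gm10664, the older name of the gene Apela, whose product is the precursor of Elabela, a secreted peptide of the early embryo. It had 639 and 562 reads in knockdown libraries, against 121 and 113 reads in controls, a log2 fold change of 2.04 ± 0.23 (SE; edgeR adjusted p = 0.0070). The call was lost without either control library (2.19 and 1.89), and with the length and GC offset the log2 fold change was 1.76. Among the 46 prohormone and neuropeptide precursors, 17 had no read in any library and 12 could be tested, with a median log2 fold change of 0.10. The highest CPM was that of Trh, the precursor gene of thyrotropin-releasing hormone, which is cut by granule convertases and trimmed by carboxypeptidase E in the brain. Trh had 343 and 334 CPM after knockdown, against 291 and 260 CPM in the controls. Both knockdown libraries lay above both controls, but its log2 fold change of 0.30 ± 0.14 did not pass (edgeR adjusted p = 0.44).

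Relatives and regulators did not pass the test. Of 8 carboxypeptidase relatives, 3 had no read in any library and 4 could be tested. No relative was called by any of edgeR, DESeq2 and limma-voom. At an unadjusted p under 0.05 there was 1, Cpn1, the catalytic subunit gene of plasma carboxypeptidase N, at 16.3 and 16.3 CPM after knockdown against 11.01 and 10.3 CPM in the controls (log2 fold change 0.61 ± 0.23). Cpxm1, a relative thought to lack enzyme activity, had the highest CPM, at 40.3 and 25.5 CPM after knockdown and 39.4 and 31.2 CPM in the controls. Of 4 other convertases and site proteases, the site-1 protease gene Mbtps1, which activates membrane-bound transcription factors, had 304 and 312 CPM after knockdown, against 305 and 327 CPM in the controls. Its metalloprotease partner Mbtps2 had a log2 fold change of 0.05 ± 0.29 and the testis convertase gene Pcsk4 one of -0.81 ± 0.77. That of Pcsk4 was -0.07 without knockdown library 1 and -2.40 without knockdown library 2. The other gene of the list, Pcsk2, had 5 and 13 reads after knockdown and 6 and 9 reads in the controls. It did not pass the filter on low counts, so 3 of the 4 could be tested by edgeR. None of these 3 had an unadjusted p under 0.05, and no gene of the list was called by any of the 3 tools.

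Of 5 regulators, Scg5 and Gbp5 had no read in any library and 2 could be tested. Pcsk1n encodes proSAAS, an inhibitor of the Pcsk1 enzyme, and had 29.6 and 26.7 CPM in knockdown libraries, against 18.2 and 25.7 CPM in controls (log2 fold change 0.36 ± 0.21). Tdgf1 encodes the Nodal coreceptor Cripto, which binds furin and the Pcsk6 enzyme, and had 417 and 414 CPM after knockdown and 477 and 352 CPM in the controls. None was called by the 3 tools or had an unadjusted p under 0.05. The inhibitor gene Pcsk1n was thus read at 18.2 CPM or more in every library while Pcsk1 itself was scarcely read.

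Of 13 secretory granule genes, 10 could be tested, 7 with a log2 fold change above 0, beside 6575 of all 13199 tested genes. The median of the 10 was 0.22, beside -0.002 over all genes tested. No granule gene was called by the 3 tools, and by edgeR 0 had an unadjusted p under 0.05. Rab3a, a vesicle GTPase gene, had 7.21 and 5.15 CPM after knockdown and 4.44 and 3.97 CPM in the controls (0.56 ± 0.33), and the granin gene Scg3 had 1.12 and 1.16 CPM against 0.486 and 0.582 CPM (1.08 ± 0.68). The highest CPM values were those of the vesicle GTPase gene Rab27a, at 29.7 and 25.8 CPM after knockdown against 35.0 and 23.6 CPM in the controls, and the granule membrane protein gene Ptprn, at 16.7 and 23.8 CPM against 19.1 and 20.5 CPM. The list as a whole summed to 87.4 and 88.2 CPM after knockdown and 88.3 and 82.2 CPM in the controls, and the groups overlapped.

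Cofactor supply and sorting genes made up 5 of the 7 pathway genes that were lower at an unadjusted p under 0.05. Of the 5 genes of copper and ascorbate supply, all tested, Slc23a2, an ascorbate transporter gene, had 60.3 and 50.004 CPM after knockdown against 78.0 and 65.6 CPM in the controls (-0.38 ± 0.17). Atp7a, the pump gene that loads copper into the secretory route, had 7.16 and 9.43 CPM against 17.0 and 9.69 CPM (-0.68 ± 0.30). Without control library 1 the log2 fold change of Atp7a was -0.23, and without control library 2 it was -1.03. Slc23a2 and Atp7a had an unadjusted p under 0.05, where 5.43% of all tested genes were lower at that threshold. With the length and GC offset their log2 fold changes were -0.26 and -0.67. Atox1, the copper chaperone gene with the highest CPM of the list, had 104 and 93.6 CPM after knockdown and 90.5 and 108 CPM in the controls. None of the 5 was called by edgeR, DESeq2 or limma-voom.

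Of the 14 trans-Golgi sorting genes, all tested, 10 had a log2 fold change below 0, beside 6624 of all 13199 tested genes. Their median was -0.13, beside -0.002 over all genes tested. Their longest transcripts ran from 1353 bases in Ap1s1 to 8887 bases in Igf2r. With all tested genes grouped by transcript length, the group with a median of 4455 bases had a median log2 fold change of -0.045. The group with a median of 6800 bases had -0.14. In 8 of the 14 sorting genes both knockdown libraries lay below both controls, where 21.3% of all genes did. None was called by the 3 tools. By edgeR 3 had an unadjusted p under 0.05: Vps35, Flna and Igf2r. Vps35, a retromer subunit gene, had 33.9 and 43.4 CPM after knockdown and 64.1 and 45.0 CPM in the controls (-0.50 ± 0.20), and Flna, whose actin-binding product tethers furin at the surface, had 540 and 464 CPM against 729 and 567 CPM (-0.37 ± 0.16). Igf2r, the gene of a sorting receptor for lysosomal enzymes, was named after its value was seen (-0.36 ± 0.16). Gga2, a clathrin adaptor gene, had 183 and 192 CPM against 179 and 187 CPM. With the length and GC offset the log2 fold change was -0.13 for Flna and -0.63 for Vps35. Over left-out libraries Flna ranged from -0.54 to -0.18 and Vps35 from -0.73 to -0.22, the values nearest 0 being those without control library 1. The value of Flna was thus nearer 0 with the offset and that of Vps35 was not. The part of transcript length in the list as a whole was not tested.

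Convertase substrates were read in 2 lists. Of 15 growth factor genes, 13 could be tested, 7 above 0 and 6 below, with a median of 0.03. None was called by any of the 3 tools or had an unadjusted p under 0.05. Inhbb, an inhibin and activin subunit gene, had 139 and 120 CPM after knockdown against 144 and 151 CPM in the controls, and Gdf3, a Nodal relative, had 150 and 109 CPM against 122 and 118 CPM. Pdgfa had a log2 fold change of -0.28 ± 0.19 and the Nodal antagonist gene Lefty1 one of 0.41 ± 0.30. Nodal itself, the best known substrate in the embryo, had one of -0.0003 ± 0.17 and was named after its value was seen.

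Of the 19 genes of receptors, integrins, cadherins and surface proteases, all tested, 13 had a log2 fold change below 0. Over all 13199 tested genes, 6624 did. The median of the 19 genes was -0.07. By edgeR none was called and 2 had an unadjusted p under 0.05, Lrp1 and Notch1. Lrp1, an endocytic receptor gene whose product furin cuts into 2 chains, had 52.2 and 29.5 CPM in knockdown libraries, against 123 and 85.7 CPM in controls. Both knockdown libraries lay below both controls, with a log2 fold change of -1.35 ± 0.27 (SE), an edgeR adjusted p of 0.12, and a call by DESeq2. Its edgeR adjusted p was under 0.05 without knockdown library 1 (-1.83) and without knockdown library 2 (-0.998). Notch1, a receptor gene whose product is also cut by furin, had 62.5 and 53.2 CPM after knockdown against 89.9 and 80.9 CPM in the controls (-0.56 ± 0.16). Both transcripts are long, and with the length and GC offset the log2 fold changes were -1.05 for Lrp1 and -0.31 for Notch1. The substrates with the highest CPM, Cdh1, or E-cadherin, and Itga6, an integrin subunit gene, had log2 fold changes of 0.18 ± 0.17 and -0.10 ± 0.17, and neither passed.

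**Figure D5:**
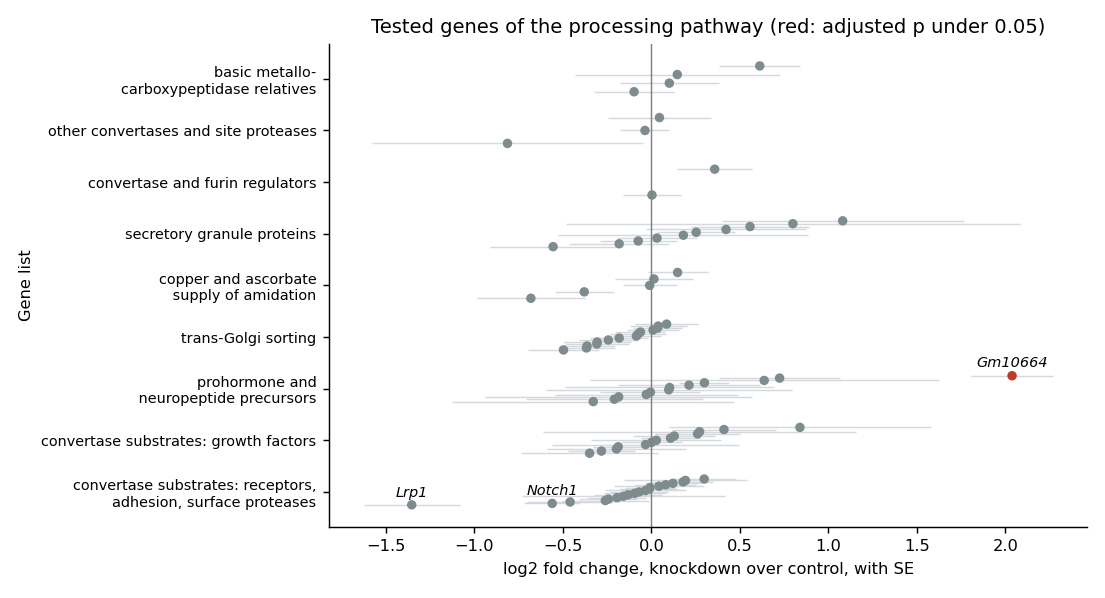
Log2 fold change, knockdown over control, with SE, of the 82 tested genes in the 9 lists of the processing pathway, 1 point for each gene. Gm10664, in red at 2.04, is the 1 gene with an adjusted p under 0.05, Lrp1 lies at -1.35, and most points of the trans-Golgi sorting list lie left of 0.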

How the data were processed

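Libraries were grouped and numbered by their titles, 2 knockdown and 2 control. Each library has 1 file of unnormalised counts by gene symbol, as the authors deposited it. Among the tools in the submitters' processing notes are HTSeq and TopHat, and the build there is mm9. Not given in the sources used here were their versions, the annotation, the overlap mode and whether counting used strand. Per the labels' protocols, libraries kept strand by a dUTP method after selection of poly(A) RNA. The 5 closing tallies that name no gene were left out: reads without a unique alignment were 28.7% and 26.1% of all tallied reads in knockdown libraries and 32.8% and 30.2% in controls, reads outside genes 6.39% to 7.61%, and ambiguous reads 0.459% to 0.600%.

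The test was edgeR 4.0.16 (R 4.3.3): filterByExpr (minimum count 10), TMM factors, robust glmQLFit and glmQLFTest with group as the term. P-values were two-sided and adjusted by the Benjamini-Hochberg method over the 13199 genes tested, with a threshold of 0.05. The SE was taken from the F statistic and the log2 fold change. An exact permutation test of 2 against 2 libraries cannot go below p = 0.333. The biological coefficient of variation was 17.4%, and replicates differed far beyond sampling noise (chi-square over its degrees of freedom 20.5 between knockdown libraries and 25.4 between controls). P-values reflect the spread among the 4 libraries, which may be technical. The test was checked on simulated data. DESeq2 1.42.0 and limma 3.58.1 were alternatives.

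Transcript lengths, GC content, 3′ untranslated regions and overlaps came from GENCODE M21 (GRCm38) by symbol. That is not the build of the files, so it gave no gene coordinates. Of 23366 symbols, 22988 (98.4%) matched, 1256 of them through a synonym in RefSeq's gene table of GRCm38.p6. The members and lists were chosen with earlier results of these data known. In each pathway list the genes named were those with an adjusted p under 0.05, the 2 lowest unadjusted p-values and the 2 highest mean levels. This rule did not cover the cell type marker lists. Genes of those lists, Nodal, Igf2r, Pcsk2 and genes with no read were named after their values were seen.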

Additional observations from a re-analysis of the deposited data

How the results depend on the processing

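The 2 libraries of a group limit every test, and low counts limit Cpz, Cpm, Pcsk1 and Pcsk5. Leaving out a library leaves an arm with 1, whose spread is assumed to equal that of the other group. In 13 alternatives the direction held for Cpe (1.13 to 1.23, log2), Cpd, Cpm, Cpz, Pcsk6 and Pcsk7. The adjusted p of Cpe was under 0.05 in 8 of them, and not with RLE factors (1.17), limma-voom (1.18), no robust estimation (1.18) or without either control library (range over left-out libraries 1.14 to 1.22). Pam ranged from -0.083 to 0.18 and Furin from -0.12 to 0.44 over left-out libraries. Cyrano was at -2.42 with limma-voom, where its adjusted p was above 0.05, and at -2.79 to -2.08 over left-out libraries. Its adjusted p was 0.12 when control library 1 was left out and 0.057 when control library 2 was. The cause of these moves was not tested.

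By edgeR 11 genes were called (5 higher, 6 lower). RLE factors gave 6 (2 and 4), scaling by library size alone gave 50 (32 and 18), and omitting the low-count filter gave 332 (174 and 158). There were 133 with DESeq2 (71 and 62), 3 with limma-voom (1 and 2) and 4 with no robust estimation (1 and 3). The count was 12 with the length and GC offset and 0 to 192 over left-out libraries, 0 without control library 2. Of the processing pathway, 1 gene was called, 3 with no filter, 2 with DESeq2 and 0 to 2 over left-out libraries. Between same-numbered libraries, the deviations from the group means correlated at r = 0.244 over 13199 genes. With 2 pairs, the numbers were not taken to pair the libraries. With the replicate block 955 genes were called (504 and 451), 4 of them in the pathway, and with the block and the offset 676 (363 and 313), 3 of them in the pathway.

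Signs under the alternatives were followed only for the pathway genes named by rule, not for every tested gene of the pathway. Among those followed, signs turned for 11 that had not been called. Mbtps1 was at 0.018 with library size only, 0.12 with the offset and 0.12 with block and offset. Mbtps2 was at -0.046 with the offset and -0.042 with block and offset. Tdgf1 was at -0.0020 with RLE factors, -0.0028 with DESeq2, -0.14 with the offset and -0.13 with block and offset, and Atox1 at 0.042 with library size only. Over left-out libraries the ranges were -0.47 to 0.20 for Cpxm1, -0.086 to 0.011 for Mbtps1, -0.20 to 0.33 for Mbtps2, -0.20 to 0.24 for Tdgf1, -0.34 to 0.24 for Rab27a, -0.24 to 0.26 for Ptprn, -0.14 to 0.12 for Atox1, -0.0015 to 0.82 for Lefty1, -0.14 to 0.32 for Gdf3, -0.036 to 0.43 for Cdh1 and -0.35 to 0.20 for Itga6.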
